A study of Mus musculus with 28 samples.

Results

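Mitosis genes are described here across fetal mouse tissues with and without p63. The 35 genes, from a list of cyclins, kinases, kinetochore, spindle and cytokinesis genes, were each read from 1 probe set, the brightest on average across the arrays. A probe set carrying the symbol alone was found for 34 of the 35, among 13613 genes tested, and Ccnb1, the gene of cyclin B1, is not analysed here. The arrays held RNA of p63 knockout (KO) and wild-type (WT) Balb/c fetuses, as 14 groups of 2 arrays. The KO groups, each with its WT counterpart, were bladder of embryonic day 15 (E15), day 18 (E18) and day 19 (E19), and 4 further tissues of E18, namely the proximal and the distal stomach and the small and the large intestine. The allele, the cells that lack p63, pooling of animals and the origin of the 2 replicates are not stated, so p-values measure the spread between these samples. Values are deposited log2 expression levels of bulk tissue, and a difference of 1 is a 2-fold difference.

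A dividing cell makes most mitotic proteins anew in G2 and M phase and destroys many of them at its end. In resting cells their promoters are held silent by the DREAM complex, and in cycling cells B-MYB and FOXM1 bind through the same MuvB core. The promoters are known for a cell cycle genes homology region, which MuvB contacts, and for CCAAT boxes, which NF-Y binds. p63, encoded by Trp63 in mouse, is the transcription factor of basal cells in stratified epithelium and urothelium, and those basal cells hold the dividing cells of such epithelia.

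Promoters were read from the RefSeq table of build GRCm38.p6, which gives 250 bases before and 50 after each gene start. The table held 31 promoters of 29 measured members, and Ccna2, Aurkb, Tpx2, Kif20a and Pbk had no entry. The letters searched were TTTGAA and TTCGAA for the homology region and CCAAT for the box, on both strands. TTCGAA is its own reverse complement and was counted once, and 1 pair of matches in the member promoters overlapped. A homology region motif stood in 26 of the 31 promoters (83.9%), against 19.2% of all 32851 promoters in the table. At least 2 CCAAT boxes stood in 17 (54.8%), against 11.7% of all promoters, and both features were held by 54.8% against 2.31%. No match says only that these letters are not in the window, as for 4 member promoters with neither motif. The 6 promoters printed show where these motifs lie in members that hold at least 1 of them, and Ndc80 holds no CCAAT. Matches of either motif are in capitals, 5′ to 3′ on the strand of the gene. Their positions are chr10:69352863-69353162 (minus strand) for Cdk1, chr7:135716330-135716629 (minus strand) for Mki67, chr11:99024140-99024439 (minus strand) for Top2a, chr7:122159185-122159484 (plus strand) for Plk1, chr2:118597961-118598260 (plus strand) for Bub1b, chr17:71526808-71527107 (minus strand) for Ndc80.
Cdk1: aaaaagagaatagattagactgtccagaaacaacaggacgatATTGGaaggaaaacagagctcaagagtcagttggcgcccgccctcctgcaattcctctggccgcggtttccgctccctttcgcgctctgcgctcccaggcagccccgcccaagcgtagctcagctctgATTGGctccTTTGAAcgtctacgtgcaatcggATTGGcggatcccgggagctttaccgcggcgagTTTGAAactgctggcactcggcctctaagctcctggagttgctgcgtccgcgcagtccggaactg
Mki67: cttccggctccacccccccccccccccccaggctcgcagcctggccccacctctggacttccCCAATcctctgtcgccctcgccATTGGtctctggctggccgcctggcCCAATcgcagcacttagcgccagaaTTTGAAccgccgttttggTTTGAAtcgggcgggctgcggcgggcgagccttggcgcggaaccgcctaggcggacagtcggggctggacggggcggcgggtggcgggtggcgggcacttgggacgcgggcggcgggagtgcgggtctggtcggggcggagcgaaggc
Top2a: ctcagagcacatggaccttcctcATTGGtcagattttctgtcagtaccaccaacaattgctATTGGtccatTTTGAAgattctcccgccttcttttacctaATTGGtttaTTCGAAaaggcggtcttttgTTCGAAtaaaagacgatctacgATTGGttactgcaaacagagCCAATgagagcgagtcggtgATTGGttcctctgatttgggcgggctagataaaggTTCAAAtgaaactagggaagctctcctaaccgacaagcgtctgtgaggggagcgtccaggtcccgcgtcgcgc
Plk1: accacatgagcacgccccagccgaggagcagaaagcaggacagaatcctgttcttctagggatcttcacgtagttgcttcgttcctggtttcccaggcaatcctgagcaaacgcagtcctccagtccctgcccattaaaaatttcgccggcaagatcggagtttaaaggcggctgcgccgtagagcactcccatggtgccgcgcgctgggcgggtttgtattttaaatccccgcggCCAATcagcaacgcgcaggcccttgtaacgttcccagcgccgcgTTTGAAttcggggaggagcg
Bub1b: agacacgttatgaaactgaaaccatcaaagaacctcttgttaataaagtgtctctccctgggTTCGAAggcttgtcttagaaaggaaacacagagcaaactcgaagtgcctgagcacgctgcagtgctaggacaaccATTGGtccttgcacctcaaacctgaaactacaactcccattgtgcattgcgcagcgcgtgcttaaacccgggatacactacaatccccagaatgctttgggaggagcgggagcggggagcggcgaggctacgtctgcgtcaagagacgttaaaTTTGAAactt
Ndc80: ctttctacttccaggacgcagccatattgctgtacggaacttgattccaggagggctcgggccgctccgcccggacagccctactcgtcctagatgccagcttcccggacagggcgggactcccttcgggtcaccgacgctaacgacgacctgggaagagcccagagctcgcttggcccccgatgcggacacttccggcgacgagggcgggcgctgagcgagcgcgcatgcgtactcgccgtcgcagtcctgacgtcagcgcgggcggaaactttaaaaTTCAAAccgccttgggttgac

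Replicate arrays had a correlation over genes of 0.980 to 0.994. The 4 bladder E19 arrays had medians of 7.48 to 7.53, below the 7.73 to 7.86 of the other 24. The signal of actin at the 3′ end minus the 5′ end, a sign of RNA degradation, was 1.12 to 1.33 in KO bladder E15 and 0.48 to 0.97 on the other 26 arrays. All 34 members lay above the median of the array on all 28 arrays. Trp63 was measured at 9.76 and 10.52 in KO bladder against 10.73 and 10.78 in WT bladder at E15. At E18 it stood at 11.37 and 11.26 against 12.29 and 12.54, and at E19 at 9.44 and 9.62 against 11.67 and 12.28. In proximal stomach Trp63 stood at 13.67 to 13.78 in KO against 13.16 to 13.31 in WT. Where its probe set lies with respect to the deleted sequence is unknown, and its level checks nothing about the allele. Of 10 basal and squamous marker genes, 9 fell in KO proximal stomach and 5 fell in KO bladder at both E18 and E19. The 7 urothelial markers averaged 11.75 to 13.15 on WT bladder arrays and 7.45 to 8.66 in the other WT tissues. The 8 intestinal markers averaged 11.70 to 11.82 in WT small intestine and 5.59 to 6.17 in WT bladder.

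In WT bladder the mitosis genes fell with age. At E15 the median member stood at a log2 level of 11.71, at E18 at 11.01 and at E19 at 9.66. From E15 to E18, 26 of 34 fell and 0 rose (median difference -0.63), against 27.9% of all genes lower and 17.1% higher by limma at an adjusted p under 0.05. From E18 to E19, 31 fell (median -1.48, 36% of all genes lower and 27.1% higher), and over the whole interval all 34 fell (median -2.04, 42.2% of all genes lower and 29.8% higher). The median of all genes tested moved by -0.10, -0.08 and -0.16 in these comparisons. With each array centred on its median, the members moved by -1.78 between E19 and E15 and all genes by 0.10. Markers of muscle and of other cell types moved over the same stages. The 8 smooth muscle markers averaged 12.20 to 12.75 at E15, 13.80 to 13.90 at E18 and 13.99 to 14.04 at E19 in WT bladder, and all 8 were called higher at E19 than at E15. The 8 skeletal muscle markers averaged 6.72 to 7.12, then 9.31 to 9.49, then 9.31 to 9.47, with 4 called higher at E19 than at E15. Urothelial markers averaged 11.75 to 11.89, then 12.90 to 13.15, then 12.49 to 12.52. Basal and squamous markers averaged 7.80 to 7.87, then 8.87 to 9.14, then 9.09 to 9.44. Immune markers averaged 8.91 to 8.94 at E15 and 9.43 to 9.84 at E19, and endothelial markers 9.92 to 10.04 and 9.73 to 9.86. The part of these shifts in the fall was not tested. In bulk tissue, fewer dividing cells and less mitotic RNA per cell cannot be told apart. The 4 bladder E19 arrays also had lower medians than the other 24, and stage E19 cannot be told apart from a difference of those arrays.

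Among the cyclins and their kinase, Cdk1, the kinase that drives entry into mitosis, stood at 12.76 and 12.80 in WT bladder at E15, 12.22 and 12.38 at E18 and 11.05 and 10.88 at E19. The E19 arrays lay below all earlier ones, with a difference of -1.82 between E19 and E15 (SE 0.12, limma adjusted p = 4.3e-11). Mki67, which encodes the proliferation marker Ki-67 that coats mitotic chromosomes, stood at 13.10 and 12.95, then 12.66 and 12.57, then 11.28 and 11.45. Top2a, the topoisomerase that untangles sister chromatids, stood at 12.75 and 12.67, then 11.91 and 11.91, then 10.41 and 10.73. Both genes were lower at each later stage, without overlap. Tpx2, a factor of spindle assembly, had the largest difference among the probe sets used, with 12.55 and 12.43 at E15, 11.56 and 11.69 at E18 and 8.27 and 8.60 at E19. It was 16.6-fold lower at E19 than at E15 (-4.05, SE 0.16, limma adjusted p = 2.3e-14). A second Tpx2 probe set, above the array median on all 28 arrays, gave -2.11 for the same comparison. Birc5, which encodes survivin of the chromosomal passenger complex, stood at 13.45 and 13.41, then 12.77 and 12.82, then 9.89 and 10.14. Prc1, the microtubule bundler of the central spindle, stood at 12.75 and 12.65, then 12.30 and 12.38, then 9.40 and 9.30. For Tpx2, Birc5 and Prc1 most of the fall lay between E18 and E19. Between E15 and E18 the largest falls were those of Bub1, Ttk and Bub1b. Bub1 stood at 10.88 and 11.00 at E18 against 12.09 and 12.06 at E15. Ttk stood at 10.80 and 10.77 at E18 against 11.84 and 11.67 at E15. Bub1b stood at 10.63 and 10.57 at E18 against 11.62 and 11.50 at E15. Anln, the actin-binding cytokinesis protein anillin, was the one member without a lower mean at each stage, with 10.59 and 10.72 at E18 against 10.97 and 10.50 at E19.

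**Figure D1:**
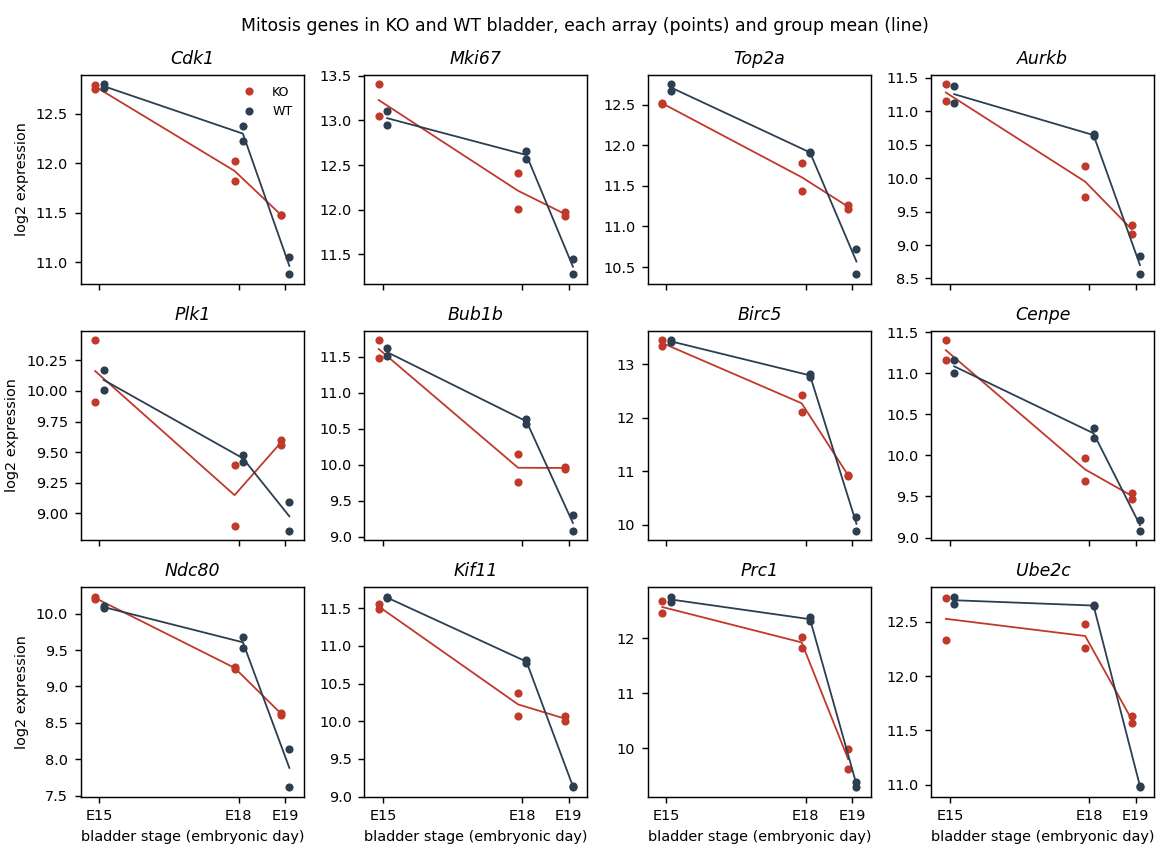
Log2 expression (vertical axis, scaled per gene) of 12 mitosis genes against bladder stage in embryonic days, with KO in red and WT in dark blue. Points are single arrays (2 per group) and lines join group means. For all 12 genes the KO points lie below WT at E18 and above WT at E19.

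In KO bladder the course differed in shape. The median member stood at 11.74 at E15, 10.41 at E18 and 10.42 at E19. From E15 to E18, 33 of 34 members fell (median -1.07, 31% of all genes lower and 15.7% higher), all but Ube2c, the ubiquitin-conjugating enzyme of the anaphase-promoting complex. With the actin signal described above as a covariate 2 members were called. Hmmr, a spindle protein, stood at 9.84 and 9.78 on the KO E18 arrays against 11.60 and 11.73 at E15. Cenpf stood at 9.57 and 9.02 against 11.21 and 11.05, and Bub1 at 10.43 and 10.05 against 12.07 and 12.07. None of the 3 overlapped between the stages. From E18 to E19, 12 fell and 4 rose (median -0.30), against 32.2% of all genes lower and 28.3% higher. The count that fell was near the share of all genes, and the count that rose was below it. The 4 that rose were Cenpf, Anln, Pbk and Ccnb2. Cenpf stood at 10.45 and 10.37 at E19 against 9.57 and 9.02 at E18. Anln stood at 11.32 and 11.15 against 10.45 and 10.29, and Pbk, a mitotic kinase, at 11.50 and 11.70 against 11.22 and 10.90. The later arrays were the higher ones for all 3 genes, though for Cenpf a second probe set went the other way. Prc1 had the largest fall, with 9.98 and 9.63 at E19 against 12.01 and 11.83 at E18. Bub1b, a kinase-like protein of the spindle checkpoint, stood at 9.94 and 9.96 at E19 against 10.15 and 9.76 at E18. The levels of the 2 stages overlapped for Bub1b, with an interval of the difference that included 0. Over the whole interval 32 fell (median -1.38, 41.1% of all genes lower and 27.6% higher), against the 34 of WT bladder. In KO bladder the smooth muscle markers averaged 12.73 to 12.74 at E15, 13.81 to 13.96 at E18 and 14.09 to 14.10 at E19, and all 8 were called higher at E19 than at E15. The skeletal muscle markers averaged 7.22 to 8.78, then 9.62 to 10.80, then 9.68 to 9.71, with 4 called higher and 2 lower at E19 than at E15. Urothelial markers averaged 12.64 to 12.72, then 13.23 to 13.27, then 12.78 to 12.79. Immune markers averaged 9.22 to 9.53 at E15 and 10.14 to 10.25 at E19, and basal and squamous markers 7.40 to 7.69 and 7.46 to 7.52. Their part was not tested.

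At E15 the genotypes showed no called difference in any member. KO minus WT ranged from -0.27 for Tpx2 to 0.24 for Cdc20, the activator of the anaphase-promoting complex, with a median of 0.01. With limma 0 of 34 passed and 0 had an unadjusted p under 0.05, where 2.49% of all genes were lower and 4.55% higher. Cdk1 stood at 12.79 and 12.75 in KO bladder against 12.76 and 12.80 in WT bladder. Its 95% interval is given in the plot of differences by gene, and a missed threshold does not show that the levels are equal. Actin degradation was 1.12 to 1.33 in these KO arrays against 0.69 to 0.78 in WT, and 5 of 8 epithelial marker genes were higher in KO. Urothelial markers averaged 12.64 to 12.72 in KO and 11.75 to 11.89 in WT, and basal and squamous markers 7.40 to 7.69 and 7.80 to 7.87.

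At E18 mitosis genes were lower in KO bladder. Of 34 members 15 fell and 0 rose, against 1.67% of all genes lower and 1.56% higher, and the median difference was -0.50 against 0.02 over all genes tested. For all 34 members both KO arrays lay below both WT arrays, which held for 22.2% of all genes. The smallest difference was -0.28, for Ube2c, with 12.48 and 12.26 in KO against 12.65 and 12.65 in WT bladder.

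Of 8 mitotic kinases 5 fell at E18. Bub1, a checkpoint kinase at the kinetochore, stood at 10.43 and 10.05 in KO against 10.88 and 11.00 in WT bladder (-0.70, SE 0.16, limma adjusted p = 0.018). Aurkb, the kinase of the passenger complex, stood at 10.18 and 9.72 in KO against 10.66 and 10.63 in WT, a 1.62-fold decrease. Bub1b stood at 10.15 and 9.76 in KO against 10.63 and 10.57 in WT. Ttk, which loads the spindle checkpoint, and Melk fell as well. Plk1, polo-like kinase, stood at 9.40 and 8.90 in KO against 9.42 and 9.48 in WT and missed the threshold (-0.30, limma adjusted p = 0.59).

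Of 6 cytokinesis genes Ect2 and Racgap1 fell. Ect2, which activates RhoA at the division plane, stood at 10.68 and 9.90 in KO against 11.27 and 11.69 in WT bladder. Its difference of -1.19 was the largest of any member (SE 0.21, 2.29-fold lower, limma adjusted p = 0.0024). Racgap1, a subunit of centralspindlin, stood at 10.21 and 9.90 in KO against 10.83 and 10.80 in WT (-0.76, limma adjusted p = 0.018). Prc1 stood at 12.01 and 11.83 in KO against 12.30 and 12.38 in WT and missed the threshold.

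Of 5 spindle genes 3 fell, among them Hmmr, with 9.84 and 9.78 in KO against 10.50 and 10.82 in WT bladder. Kif11, the motor that separates spindle poles, stood at 10.38 and 10.07 in KO against 10.81 and 10.77 in WT (-0.57, limma adjusted p = 0.035). Of 5 centromere and kinetochore genes Cenpf and Nuf2 fell. Cenpf, a kinetochore protein, stood at 9.57 and 9.02 in KO against 9.99 and 10.20 in WT. Cenpe, the kinetochore motor, stood at 9.96 and 9.69 in KO against 10.21 and 10.33 in WT, and Ndc80, the microtubule anchor, at 9.27 and 9.24 against 9.53 and 9.68. Neither passed the test.

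Birc5 fell by 0.52, with 12.43 and 12.11 in KO against 12.77 and 12.82 in WT bladder. Ccnb2, the cyclin B2 gene, was the one of 3 cyclin and CDK genes that fell (-0.51), and Cdk1 stood at 12.02 and 11.82 in KO against 12.22 and 12.38 in WT. Mki67 stood at 12.41 and 12.01 in KO against 12.66 and 12.57 in WT, and Top2a at 11.78 and 11.43 against 11.91 and 11.91. Neither chromosome-bound protein passed. Of the 3 ubiquitin-pathway genes Cdca3, which targets Wee1 for destruction, fell by 0.79.

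All 34 members were lower on KO replicate 2 than on KO replicate 1 (median gap 0.32). Without KO replicate 2, 0 members were called, and without WT replicate 2 also 0. Without WT replicate 1 it was 4, and without KO replicate 1 it was 14. In a fit of the E18 bladder arrays alone 1 member was called. In these arrays the basal and squamous markers averaged 7.44 to 7.92 in KO and 8.87 to 9.14 in WT, and 2 of 6 neuronal and glial markers were higher in KO (mean level 7.62 to 9.02 in KO and 6.93 to 7.70 in WT). The 5 immune markers averaged 9.39 to 9.77 in KO and 9.04 to 9.20 in WT, and the 8 skeletal muscle markers 9.62 to 10.80 in KO and 9.31 to 9.49 in WT. Neither list overlapped between genotypes, and 0 of their genes were called. Urothelial markers averaged 13.23 to 13.27 in KO and 12.90 to 13.15 in WT, and mesothelial markers 11.50 to 11.52 and 11.18 to 11.45. Intestinal markers averaged 6.29 to 6.31 in KO and 5.62 to 5.66 in WT, and these lists did not overlap either. The mesothelial list shares Upk3b with the urothelial list and Krt19 with the epithelial list. Of 8 smooth muscle and 8 epithelial markers 0 were called. The part of other cell types in the result was not tested.

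**Figure D2:**
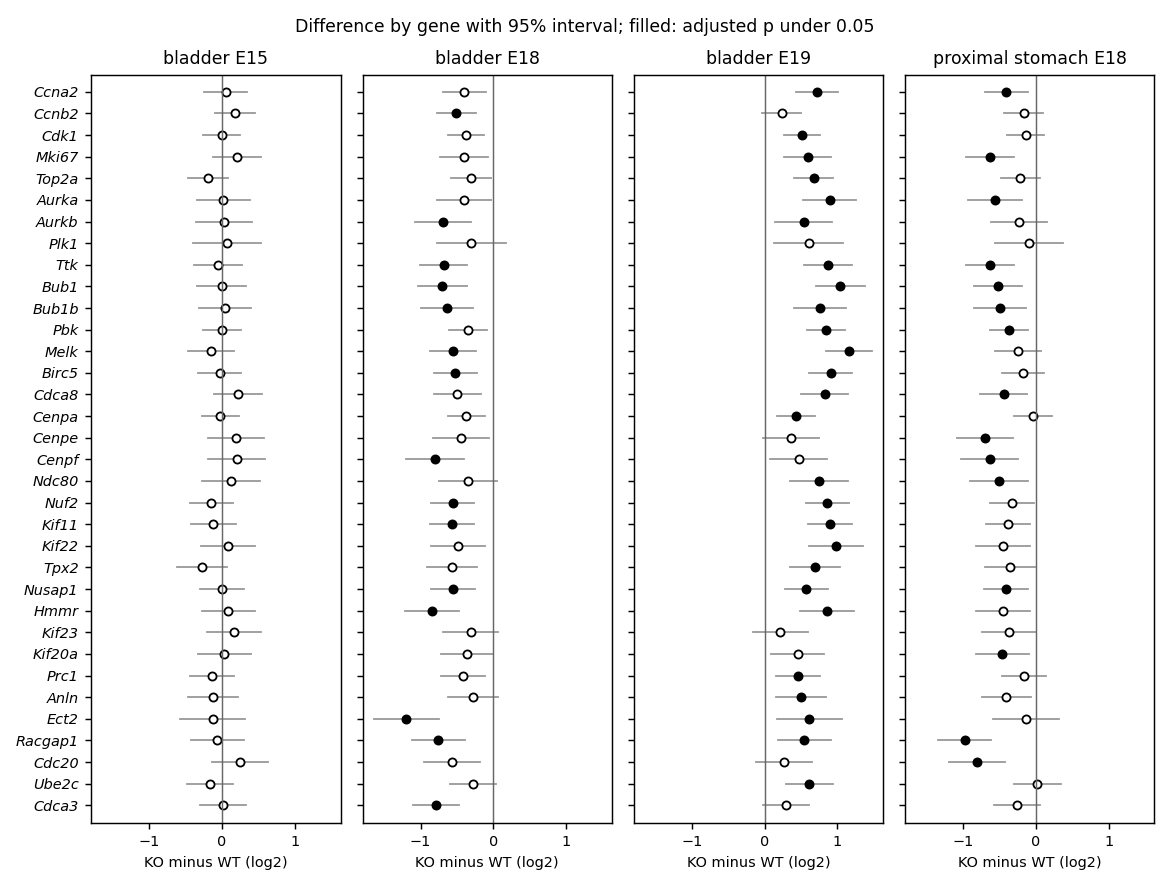
KO minus WT difference on the log2 scale (horizontal axis) for each of 34 mitosis genes (rows) in bladder at 3 stages and in proximal stomach. Lines are 95% intervals, and filled points passed at an adjusted p under 0.05. All points lie left of 0 in bladder E18 and right of 0 in bladder E19.

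At E19 mitosis genes were higher in KO bladder. Of 34 members 26 rose and 0 fell, against 13.5% of all genes higher and 6.5% lower, with a median difference of 0.62 against 0.09 over all genes tested. For all 34 members both KO arrays lay above both WT arrays, which held for 41.5% of all genes.

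Of 8 kinases 7 rose at E19. Melk, a kinase of dividing cells, stood at 9.51 and 9.75 in KO against 8.55 and 8.40 in WT bladder, the largest difference (1.16, SE 0.15, 2.23-fold, limma adjusted p = 2.8e-05). Bub1 stood at 10.30 and 10.60 in KO against 9.33 and 9.48 in WT (1.04, SE 0.16, limma adjusted p = 1.4e-04). Bub1b stood at 9.94 and 9.96 in KO against 9.08 and 9.30 in WT. Aurkb was nearer the threshold, with 9.30 and 9.17 in KO against 8.56 and 8.84 in WT (0.54, limma adjusted p = 0.047). Plk1 stood at 9.56 and 9.60 in KO against 8.86 and 9.09 in WT and missed it (0.60, limma adjusted p = 0.063).

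All 5 spindle genes rose. Kif22, a motor that pushes chromosomes to the equator, stood at 9.43 and 9.64 in KO against 8.41 and 8.70 in WT bladder (0.98, SE 0.18, limma adjusted p = 6.8e-04). Other Kif22 probe sets gave smaller differences, 0.24 and 0.42. Kif11 stood at 10.01 and 10.07 in KO against 9.13 and 9.14 in WT (0.90, SE 0.15, limma adjusted p = 2.2e-04). Tpx2 stood at 9.22 and 9.04 in KO against 8.27 and 8.60 in WT.

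Both passenger complex partners rose, and Birc5 stood at 10.93 and 10.91 in KO against 9.89 and 10.14 in WT bladder, 1.88-fold higher. Of the cyclins and CDK, Cdk1 stood at 11.48 on both KO arrays against 11.05 and 10.88 in WT (0.51, limma adjusted p = 0.0051). Ccna2, the cyclin A2 gene, rose by 0.72, and Ccnb2 missed the threshold. Mki67 stood at 11.93 and 11.98 in KO against 11.28 and 11.45 in WT (0.59, limma adjusted p = 0.011), and Top2a at 11.22 and 11.27 against 10.41 and 10.73. A second Top2a probe set, above the array median on all 28 arrays, gave 0.12, against 0.67 for the one used.

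Of 5 centromere and kinetochore genes Cenpa, Ndc80 and Nuf2 rose. Ndc80 stood at 8.62 and 8.64 in KO against 7.62 and 8.15 in WT bladder (0.75, limma adjusted p = 0.0096). Cenpe stood at 9.55 and 9.47 in KO against 9.08 and 9.22 in WT and missed the threshold, as did Cenpf. A second probe set of each was lower in KO, by -0.44 for Cenpe and -0.51 for Cenpf. Of 6 cytokinesis genes Prc1, Anln, Ect2 and Racgap1 rose, and Kif23 had the smallest difference of all members, 0.22. Prc1 stood at 9.98 and 9.63 in KO against 9.40 and 9.30 in WT. Of the ubiquitin-pathway genes Ube2c rose, with 11.57 and 11.63 in KO against 10.99 and 10.98 in WT.

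With any 1 of the 4 arrays left out, 17 to 19 of the 26 were called, and 17 were called without KO replicate 1 and without KO replicate 2. The basal and squamous markers averaged 7.46 to 7.52 in KO and 9.09 to 9.44 in WT bladder at E19, and of 8 epithelial and 8 smooth muscle markers 0 were called. Other lists were higher in KO without overlap. The 2 erythroid markers averaged 9.90 to 9.94 in KO and 9.16 to 9.18 in WT (1 called), the 5 immune markers 10.14 to 10.25 in KO and 9.43 to 9.84 in WT (1 called), and the 6 neuronal and glial markers 7.77 to 7.91 in KO and 7.31 to 7.32 in WT (0 called). The 6 mesothelial markers averaged 10.74 to 10.75 in KO and 9.90 to 10.54 in WT, and 3 were called higher. The 7 urothelial markers averaged 12.78 to 12.79 in KO and 12.49 to 12.52 in WT, with 1 called. Skeletal muscle markers averaged 9.68 to 9.71 in KO and 9.31 to 9.47 in WT, and smooth muscle markers 14.09 to 14.10 and 13.99 to 14.04. Intestinal markers averaged 6.63 to 6.77 in KO and 5.90 to 6.17 in WT. Endothelial markers were lower in KO without overlap, at 9.60 to 9.63 against 9.73 to 9.86 in WT. Their part in the result was not tested.

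The difference between the stages was tested directly. The KO minus WT difference was larger at E19 than at E18 for all 34 members, with a median change of 1.16 against 0.06 over all genes tested, and 28 members passed with limma, against 3.98% of all genes higher and 1.29% lower. Ect2 changed most, by 1.81 (SE 0.30, limma adjusted p = 0.0013), then Bub1 by 1.74 and Melk by 1.71. Cdk1 changed by 0.89 (SE 0.17, limma adjusted p = 0.0039) and Mki67 by 0.99 (SE 0.22, limma adjusted p = 0.011). Anln, Plk1, Cenpe, Cdc20, Kif20a and Kif23 missed the threshold, with changes of 0.53 to 0.90. Between E18 and E15 the genotype difference was more negative at E18 for all 34 members (median -0.48), but 0 passed with limma, 20 had an unadjusted p under 0.05 and the smallest adjusted p was 0.096. Here 0.382% of all genes were called lower and 0.228% higher. Between E19 and E15 it was more positive at E19, with 13 members called (median 0.62, 5.08% of all genes higher and 3.51% lower). With the actin signal as a covariate 0 were called, without WT E15 replicate 1 it was 7 and without KO E19 replicate 1 it was 8.

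Across the 34 members the difference at E18 and the difference at E19, measured on separate arrays, were not aligned (Pearson's r = -0.10, Spearman's rho = -0.16, a description across genes). Of the 15 members called at E18, 12 were also called at E19 (80% of the first list and 46.2% of the second), with opposite signs. At E19 26 of all 34 members were called, so the 80% is near the share of members as a whole.

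**Figure D3:**
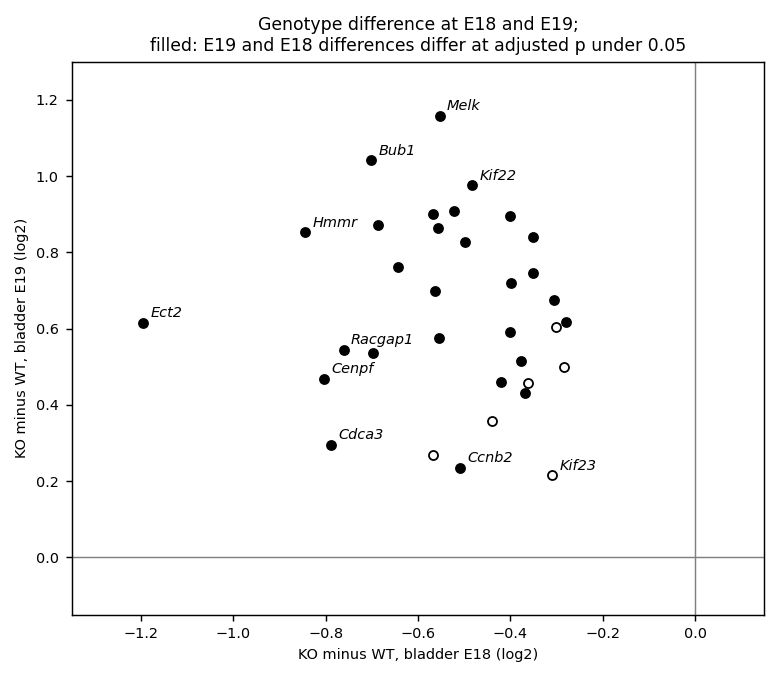
KO minus WT log2 difference in bladder at E18 (horizontal) and E19 (vertical), 1 point per mitosis gene. All 34 points lie in the quadrant that is lower in KO at E18 and higher in KO at E19. Filled points are the 28 whose differences at the 2 stages differed at an adjusted p under 0.05.

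Probe sets of 1 gene differed more between E19 and E18 than between genotypes. Of the members 18 had 2 or more probe sets above the array median on most arrays, 43 probe sets in all. KO minus WT at E18 was negative for all 43, and at E19 it was positive for 41 and negative for 2, of Cenpe and Cenpf. KO bladder at E19 minus E18 was negative for 26 and positive for 17, and in WT bladder it was negative for 40 and positive for 3. The probe sets of a gene differed by a median of 0.96 in KO and 0.95 in WT for that comparison, against 0.18 for KO minus WT at E18 and 0.36 at E19. For Cenpf the probe set used gave 1.12 for KO bladder at E19 minus E18 and the other gave -3.24. For Aurkb they gave -0.71 and 1.11.

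In proximal stomach, the part of the mouse stomach lined by squamous epithelium, mitosis genes were lower in KO. Of 34 members 15 fell and 0 rose, against 14.6% of all genes lower and 18.1% higher, with a median of -0.39 against 0.02 over all genes tested. Both KO arrays lay below both WT arrays for 24 members, which held for 28.6% of all genes. Racgap1 fell most, with 10.19 and 9.61 in KO against 11.03 and 10.73 in WT proximal stomach (-0.98, SE 0.17, 1.97-fold lower, limma adjusted p = 1.6e-04). Cdc20 stood at 10.76 and 10.31 in KO against 11.36 and 11.33 in WT (-0.81, limma adjusted p = 0.0019). Cenpe stood at 9.44 and 8.94 in KO against 9.95 and 9.82 in WT (-0.70, limma adjusted p = 0.0059). Mki67 stood at 12.25 and 11.74 in KO against 12.64 and 12.61 in WT (-0.63, limma adjusted p = 0.0037). The groups of these 4 genes did not overlap.

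By role, 5 of 8 kinases, 3 of 5 centromere and kinetochore genes and 2 of 6 cytokinesis genes fell in KO proximal stomach. Other members stood apart from that pattern. Cdk1 stood at 11.86 and 11.53 in KO against 11.85 and 11.82 in WT, and Birc5 at 12.55 and 12.11 against 12.44 and 12.56. Ube2c stood at 12.41 and 11.88 in KO against 12.05 and 12.20 in WT. All 3 overlapped between genotypes. Ect2, the member with the largest fall in KO bladder at E18, differed by -0.14 here (95% interval -0.58 to 0.31). Of the 15 members called in each, 6 were called in both bladder E18 and proximal stomach (40% of each list). With 15 of all 34 members called in each, that is near the share of members as a whole.

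All 34 members were lower on KO proximal stomach replicate 2 than on replicate 1 (median gap 0.39), and without replicate 2 1 member was called. Without WT replicate 1 it was 5, and without KO replicate 1 it was 21. Actin degradation was 0.48 to 0.61 in KO and 0.88 to 0.97 in WT, and with it as a covariate 1 member was called. Of 8 epithelial markers 6 rose in KO, 6 of 7 urothelial markers rose, and the basal and squamous markers averaged 8.04 to 8.07 in KO and 12.71 to 13.06 in WT. Of 8 smooth muscle markers 1 fell. The 6 mesothelial markers averaged 11.45 to 11.48 in KO and 10.44 to 10.81 in WT, with 3 called higher. Of these 6, Upk3b is also counted as a urothelial and Krt19 as an epithelial marker. The 8 skeletal muscle markers averaged 6.68 to 7.12 in KO and 7.79 to 8.53 in WT, with 3 called lower. The part of these shifts was not tested.

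In distal stomach, small intestine and large intestine, where Trp63 ranged from 5.80 to 8.73 in KO and 5.68 to 7.20 in WT, no member was called. All 34 members had a higher mean in KO in each of the 3 tissues, with medians of 0.21, 0.22 and 0.20 against 0.02, 0.04 and -0.02 over all genes tested. With limma 0 passed in each, and 0, 4 and 3 had an unadjusted p under 0.05. Over all genes, 0% were called in distal stomach and in small intestine, and 0.0588% were called higher and 0.0294% lower in large intestine. The groups did not overlap, KO higher, for 15, 24 and 19 members, against 16.7%, 27.7% and 11.8% of all genes. Mki67 stood at 12.82 and 12.96 in KO against 12.53 and 12.85 in WT distal stomach, where the groups overlap, and at 12.62 and 12.65 against 12.32 and 12.53 in small intestine. In large intestine it stood at 13.06 on both KO arrays against 12.78 and 13.07 in WT, which overlap. WT replicate 1 was the lower of the 2 WT arrays for 32 members in distal stomach, 34 in small intestine and 32 in large intestine (median gaps 0.29, 0.25 and 0.29), so the genotype difference was smaller than the gap between WT replicates. Without WT replicate 1 or any other array 0 members were called.

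**Figure D4:**
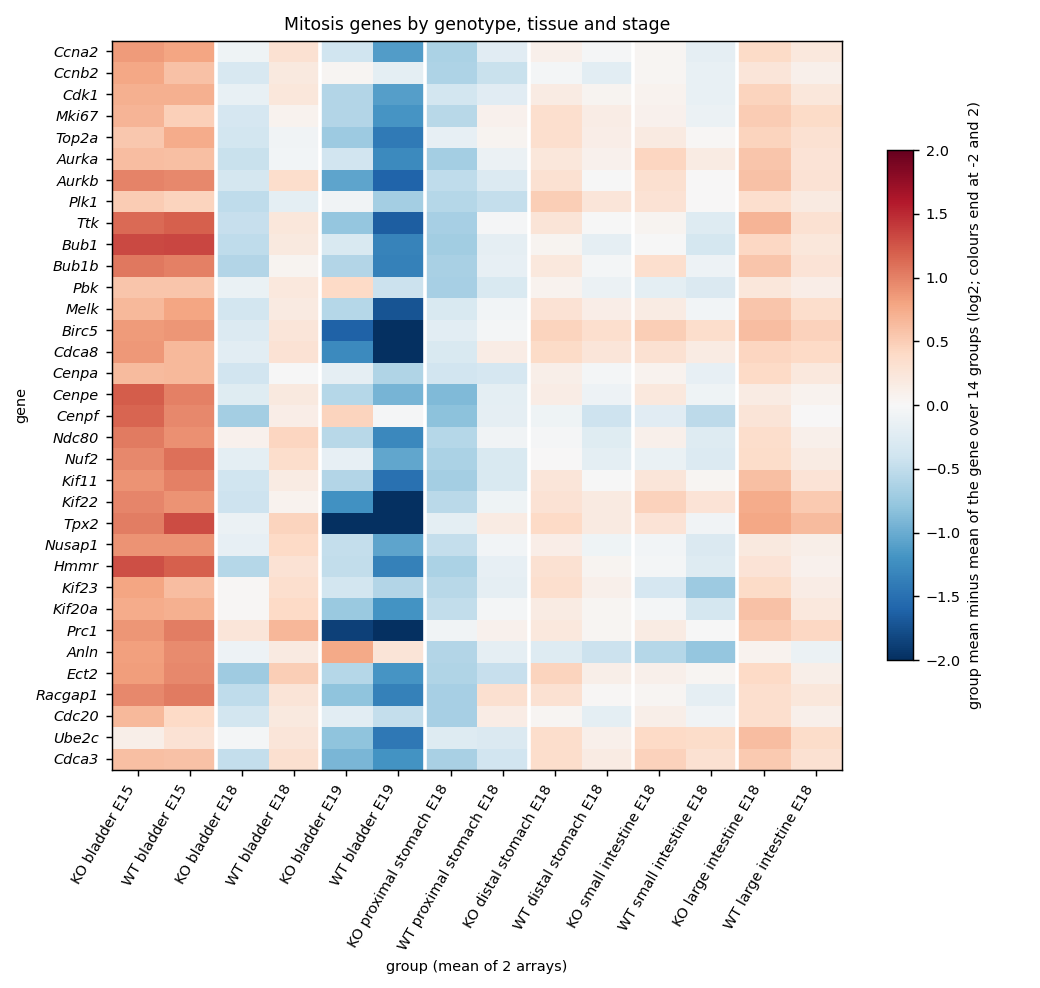
Mean log2 expression of each mitosis gene (rows) in each of 14 groups (columns, KO left of WT), minus the mean of that gene over the groups, with colours ending at -2 and 2. KO and WT bladder E15 hold the highest means and WT bladder E19 the lowest of most genes.

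Over all 14 groups KO bladder E15 had the highest mean for 18 members and WT bladder E15 for 15, with KO large intestine on top for 1. WT bladder E19 had the lowest mean for 28. Neighbours on top did not differ by the test, as no member was called between genotypes at E15. Among the 5 WT tissues at E18, bladder was on top for 18 members and large intestine for 14, and proximal stomach was lowest for 19 and small intestine for 13. Against the mean of the other 4 tissues, WT bladder was higher for 15 members and lower for 0 (median 0.24, 24.2% of all genes higher and 29.4% lower). Prc1 was higher there by 0.53 and Nuf2 by 0.51. WT proximal stomach was lower for 14 (median -0.21, 28.1% of all genes lower and 20.3% higher), with Cdca3 at -0.66 and Ube2c at -0.56. WT small intestine was lower for 12 (median -0.21, 29.8% of all genes lower and 25.2% higher), with Kif23 at -0.82 and Anln at -0.64, a count near the share of all genes. WT large intestine was higher for 7 (median 0.25, 17% of all genes higher and 14.2% lower), also near that share. WT distal stomach had 0 called, with 2 at an unadjusted p under 0.05, against 18.1% of all genes lower and 16.9% higher. These counts rest on single arrays. For bladder 5 were called without WT bladder replicate 2. For proximal stomach 6 were called without its replicate 1 and 8 without its replicate 2. For small intestine 2 were called without its replicate 1. For large intestine 0 were called without its replicate 2, 2 without small intestine replicate 1, 3 without replicate 1 of bladder, distal or proximal stomach, and 4 without proximal stomach replicate 2. There 11 were called without small intestine replicate 2 and 14 without distal stomach replicate 2. With the actin covariate 2 were called for proximal stomach and 5 for small intestine. Among the KO tissues at E18, large intestine was on top for 30 members and proximal stomach lowest for 30, and bladder was on top for 0.

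Other genes of the cell cycle were read from lists chosen with earlier results of these data known. Their counts stand against 1.67% of all genes lower and 1.56% higher in KO bladder at E18, 6.5% lower and 13.5% higher at E19, and 14.6% lower and 18.1% higher in KO proximal stomach. Of 53 other measured mitotic genes 17 fell and 0 rose in KO bladder at E18 (median -0.49), and 30 rose and 0 fell at E19 (median 0.52). Kif18a, a motor that limits chromosome movement, fell by 0.82 at E18, and Ncapg, a condensin subunit, rose by 1.16 at E19. In KO proximal stomach 19 fell and 2 rose, Fam83d, which anchors a kinase to the spindle, at -2.98, and the 2 that rose were Cdc25b at 0.96 and Mad2l1 at 0.92.

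Of 31 DNA replication and S phase genes 2 fell in KO bladder at E18, Mcm5 and Rrm2 (median of the list -0.40), and 26 rose at E19 (median 0.79). Cdc6, which loads the replicative helicase, rose by 2.18 at E19, with a mean of 10.73 in KO against 8.54 in WT bladder, and Mcm2, a helicase subunit, rose by 1.63. In KO proximal stomach 12 of the 31 fell. Of 19 regulators of mitotic genes, Rbl1 and E2f5 fell at E18, and E2f2, E2f8 and Rbl1 rose at E19 while Tfdp2 fell, which at E19 is near the share of all genes in both directions. Of 13 core genes of the anaphase-promoting complex 0 were called at E18 and 4 rose at E19, with medians of -0.01 and 0.18.

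**Figure D5:**
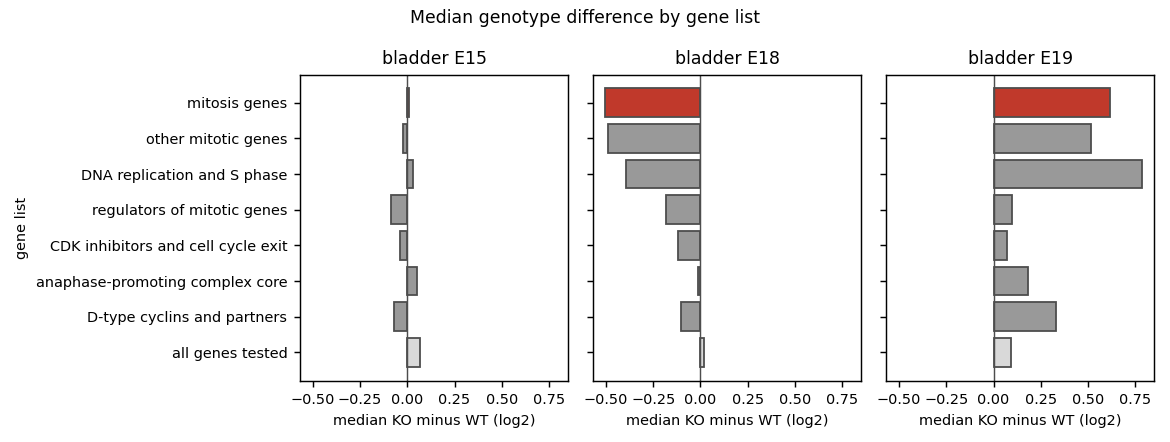
Median KO minus WT log2 difference (horizontal axis, from 0) in bladder at E15, E18 and E19 for the mitosis genes (red), 6 other gene lists (grey) and all genes tested (light grey). At E18 the mitosis genes stand at -0.50 and all genes at 0.02, and at E19 they stand at 0.62 and 0.09.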

How the data were processed

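Total RNA of 28 samples was extracted with Trizol, labelled with a 3′ IVT kit and hybridised to Affymetrix mouse arrays, per the labels' protocols. The authors deposited log2 values, 1 per probe set and array, and the submitters' processing notes name Affymetrix Expression Console and Partek. The normalization is not given in the sources used here, and precision is limited by how many arrays there are. Values were used as deposited. Probe sets with several symbols (932), no symbol (9160) or control function (64) were left out, and a gene was kept by its probe set with the highest mean, above the array median on at least 2 of 28 arrays. One limma 3.58.1 model (R 4.3.3) held all 14 groups, with 14 residual degrees of freedom and a variance trend, and p-values were two-sided and adjusted by Benjamini and Hochberg over 13613 genes. The members, lists, contrasts and naming rule were chosen with earlier results of these data known. Per-array values are given for 1 or 2 members per role and the largest differences, and others by role. For an exact permutation test of 2 against 2 arrays, p cannot reach the threshold of 0.05. On data simulated for bladder E18, 9 of 50 genes changed by 0.5 on the log2 scale were recovered, 35 of 50 changed by 1 and 49 of 50 changed by 2. The simulated noise was independent between genes, so it held no shift shared by many genes of 1 array, as seen on the KO bladder E18 arrays. Alternatives were median centring, quantile normalization (added after seeing the data), other filters, the mean of probe sets, an actin covariate, only the arrays compared, a replicate block and leaving out each array. The labels do not say that a replicate number is shared between genotypes, and with 2 numbers per tissue they were not taken as pairs.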

Additional observations from a re-analysis of the deposited data

Results flagged for a closer look

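The KO minus WT difference of mitosis genes differed between bladder stages by the test of the difference itself. Between E19 and E18 it differed for 28 members, against 3.98% of all genes higher and 1.29% lower. Ect2 changed by 1.81, Bub1 by 1.74 and Melk by 1.71 on the log2 scale. Between E19 and E15 it differed for 13 members, against 5.08% of all genes higher and 3.51% lower. Melk changed by 1.31, Bub1 by 1.05 and Kif11 by 1.02. With the actin signal as a covariate no member was called between E19 and E15. With groups of 2 arrays, no test singled out an outlying array, but each array was left out in turn. The median change of the members was then 1.02 to 1.35 between E19 and E18 and 0.60 to 0.76 between E19 and E15.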

How the results depend on the processing

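With the actin covariate, members called were 1 in KO minus WT proximal stomach, 2 in KO bladder at E18 minus E15, 0 in the change of the genotype difference between E19 and E15, 2 in WT proximal stomach and 5 in WT small intestine against the other tissues. Fitted on the compared groups alone they were 1 in bladder E18, 9 in proximal stomach and 4 in WT large intestine. In WT large intestine they were also 4 with the mean of probe sets, 3 with median centring, 4 without a filter and 4 with a replicate block. The replicate block changed no other count by over 1.5 times, and KO and WT arrays of one number correlated at -0.13 to 0.28 in their deviations. A crossed block in small intestine, added after seeing the data, gave 0 calls. Leaving out 1 array gave 0 to 1 calls in KO minus WT bladder E15, 0 to 14 at E18, 17 to 19 at E19, 1 to 21 in proximal stomach and 0 in the 3 other tissues. It gave 18 to 22 for WT bladder E18 minus E15, 30 to 31 for E19 minus E18 and 34 for E19 minus E15, and 32 to 33, 13 to 20 and 31 to 32 in KO bladder. It gave 0 to 4, 22 to 28 and 7 to 13 for the changes of the genotype difference between E18 and E15, E19 and E18, and E19 and E15. Among WT tissues it gave 5 to 16 in bladder, 6 to 14 in proximal stomach, 0 to 2 in distal stomach, 2 to 16 in small intestine and 0 to 14 in large intestine. Where an array left out leaves 1 in its group, that array is assumed to vary like the other groups. With the mean of probe sets, KO bladder at E19 minus E18 reversed for Aurkb (0.20, limma adjusted p = 0.35) and Cenpf (-1.06, limma adjusted p = 4.7e-04). The causes were not tested. Median centring moved the median of all genes from -0.16 to 0.10 for WT and KO bladder E19 minus E15 and from -0.01 to 0.19 for KO E19 minus E18, and the members' median there from -0.30 to -0.10. It moved the share of called genes that were lower from 51.7% to 65.6% in KO minus WT bladder E18, from 61.9% to 50.9%, 57.1% to 46.4% and 58.7% to 46.5% in the WT bladder stages, from 53.2% to 39.2% and 59.9% to 45.6% in KO bladder at E19 minus E18 and E15, and from 45.4% to 58.9% in WT large intestine.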

Other observations

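Of 13 CDK inhibitors and cell cycle exit genes, 10 rose and 0 fell in WT bladder at E18 relative to E15, against 17.1% of all genes higher and 27.9% lower, led by Cdkn1a, which encodes p21, at 2.47 on the log2 scale (SE 0.24). At E19 relative to E18 4 rose and 5 fell in WT bladder, against 27.1% of all genes higher and 36% lower, with Btg2 at -0.96 and Gadd45a at -0.89. Between genotypes 0 were called at E18 by limma. At E19 3 rose in KO bladder, among them the antiproliferative gene Btg2 (1.38), against 13.5% of all genes higher and 6.5% lower. Cdkn1a fell by 0.90 at E19, with a mean of 10.59 in KO against 11.49 in WT bladder. In KO proximal stomach 5 rose and 1 fell, against 18.1% of all genes higher and 14.6% lower, and Cdkn1c, which encodes p57, rose by 1.32.

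Of 8 D-type cyclins and partners, Ccnd2 fell by 0.98 in KO bladder at E18 (mean 12.08 in KO against 13.07 in WT) and by 0.68 at E19. Over all genes, 1.67% were lower and 1.56% higher at E18, and 6.5% lower and 13.5% higher at E19. In KO proximal stomach 14.6% of all genes were lower and 18.1% higher. Ccnd1 rose by 0.72 in KO bladder at E19 and by 0.67 in KO proximal stomach, where Myc fell by 1.54. The 2 cyclin D genes thus differed in sign between KO and WT bladder at E19.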
